A study of Mus musculus with 12 samples.

Results

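Tight junction genes were examined along the turns of the mouse cochlea. The 8 genes were the claudins Cldn9, Cldn10, Cldn11 and Cldn14, the tricellular junction genes Marveld2 and Ildr1, occludin (Ocln) and the scaffold gene Tjp1. They were picked by name, with earlier results of these data known. All 8 were found among the 19505 gene names of the arrays, and they carried 58 of the 165865 probes used. Apical, middle and basal turns were dissected from cochleae of male C57BL/6 mice aged 6 weeks, with no treatment and no engineered allele, and 4 arrays were hybridized for each turn, each with RNA amplified from 25 ng of total RNA. The mice numbered 4 in all, and whether sample 1 of each turn came from the same mouse is not given in the sources used here.

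Each sample was a whole turn freed from the otic capsule, and so held the organ of Corti, spiral ganglion neurons and the lateral wall with its stria vascularis, ligament and prominence. In such bulk tissue fewer cells of a type and less RNA per cell cannot be told apart. Each of the 3 slides held the 4 arrays of a single turn, so turn and slide cannot be told apart, and p values measure the spread between arrays of a turn. Values are fluorescence intensities in arbitrary units, scaled so that every array had the same 75th percentile, and differences are on the log2 scale. A gene was called different between turns where limma's moderated test had a Benjamini-Hochberg adjusted p under 0.05 over all genes. The level of one gene cannot be set against that of another, since every probe has its own brightness.

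Tight junctions seal the space between neighboring epithelial cells. Claudins form the strands and set which ions pass between the cells, occludin and its relative tricellulin (Marveld2) lie in the strands, with tricellulin and Ildr1 at the corners where 3 cells meet, and zonula occludens proteins such as Tjp1 tie the strands to actin. In the cochlea these junctions keep the potassium-rich endolymph apart from the fluid around the hair cells, and claudin-11 strands between basal cells insulate the stria vascularis. Mutations of CLDN14, MARVELD2, ILDR1 and CLDN9 cause recessive deafness in humans, and mice without Cldn11 or Ocln lose hearing.

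The probes are oligonucleotides of 60 bases placed in exons. The values of Cldn14 and Cldn9 rested on 1 probe each, so these sequences are shown. For Cldn10, which has alternative first exons, the probe of one of the alternative starts is shown with 2 probes from the exons downstream of it, and for Tjp1 a probe listed under only 1 of its 2 transcripts. All are given in the direction of the transcript on build mm9, as in the array files. In the first, capitals mark the codons of a tryptophan and 2 cysteines that belong to the claudin signature of the first extracellular loop. The others have no capitals.
Cldn10, alternative start, chr14:119254349-119254408, plus strand: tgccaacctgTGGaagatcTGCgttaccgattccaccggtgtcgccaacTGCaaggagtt
Cldn10, downstream exon, chr14:119261020-119261079, plus strand: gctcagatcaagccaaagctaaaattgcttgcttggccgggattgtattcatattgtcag
Cldn10, downstream exon, chr14:119261192-119261251, plus strand: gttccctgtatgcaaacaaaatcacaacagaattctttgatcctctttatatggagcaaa
Cldn14, chr16:93919671-93919730, minus strand: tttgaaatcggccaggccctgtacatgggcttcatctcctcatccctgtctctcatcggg
Cldn9, chr17:23820168-23820227, minus strand: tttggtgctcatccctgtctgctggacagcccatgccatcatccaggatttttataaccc
Tjp1, alternative exon, chr7:72459105-72459164, minus strand: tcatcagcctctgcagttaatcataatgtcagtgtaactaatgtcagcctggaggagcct

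Between apex and base, 6 of the 8 genes were called, beside 39.2% of all genes. Cldn10, Tjp1, Marveld2 and Ildr1 were higher in the apex, where 17.6% of all genes were called higher. Cldn14 and Cldn11 were lower in the apex, where 21.6% of all genes were called lower. Cldn9 and Ocln did not pass the test. The differences were small apart from Cldn10, which was 2.17-fold higher in the apex, and the other 5 ran from 1.26-fold to 1.43-fold in either direction. The median difference of the 8 genes was 0.16 log2 units, beside -0.04 over all genes. With another scaling the split of higher and lower calls among the 8 moved from 4 and 2. It was 2 and 1 (quantile), 2 and 3 (median) and 1 and 4 (spike-in probes). Over all 19505 genes the split was 3440 and 4205, and moved to 2909 and 5000, 2267 and 6290, and 917 and 13393.

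These directions were relative to the bulk of the RNA. When the arrays were scaled to their spike-in probes instead of the 75th percentile, the median of all genes lay at -0.45 in the apex against the base, and Marveld2 (-0.09) and Ildr1 (-0.05) changed sign, while Tjp1 (0.10, adjusted p = 0.392) was no longer called. Relative to that shifted median, Tjp1 stood at 0.55, Ildr1 at 0.40, Marveld2 at 0.37 and Cldn10 at 1.15. Cldn14 stood at -0.42 and Cldn11 at -0.33. Both scalings shift all genes of an array alike, so these distances are equal under both and are no check on the directions. Spike-in scaling left 6.41% of the genes called between apex and base on the higher side and scaling to the median 26.5%, beside 45.0% here. The share of the genes called that were higher moved in the same way between apex and middle turn, from 36.8% to 4.27% with the spike-in probes and 18.6% with the median, and between middle turn and base, from 55.9% to 10.4% and 38.1%, with 45.0% under quantile normalization.

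**Figure D1:**
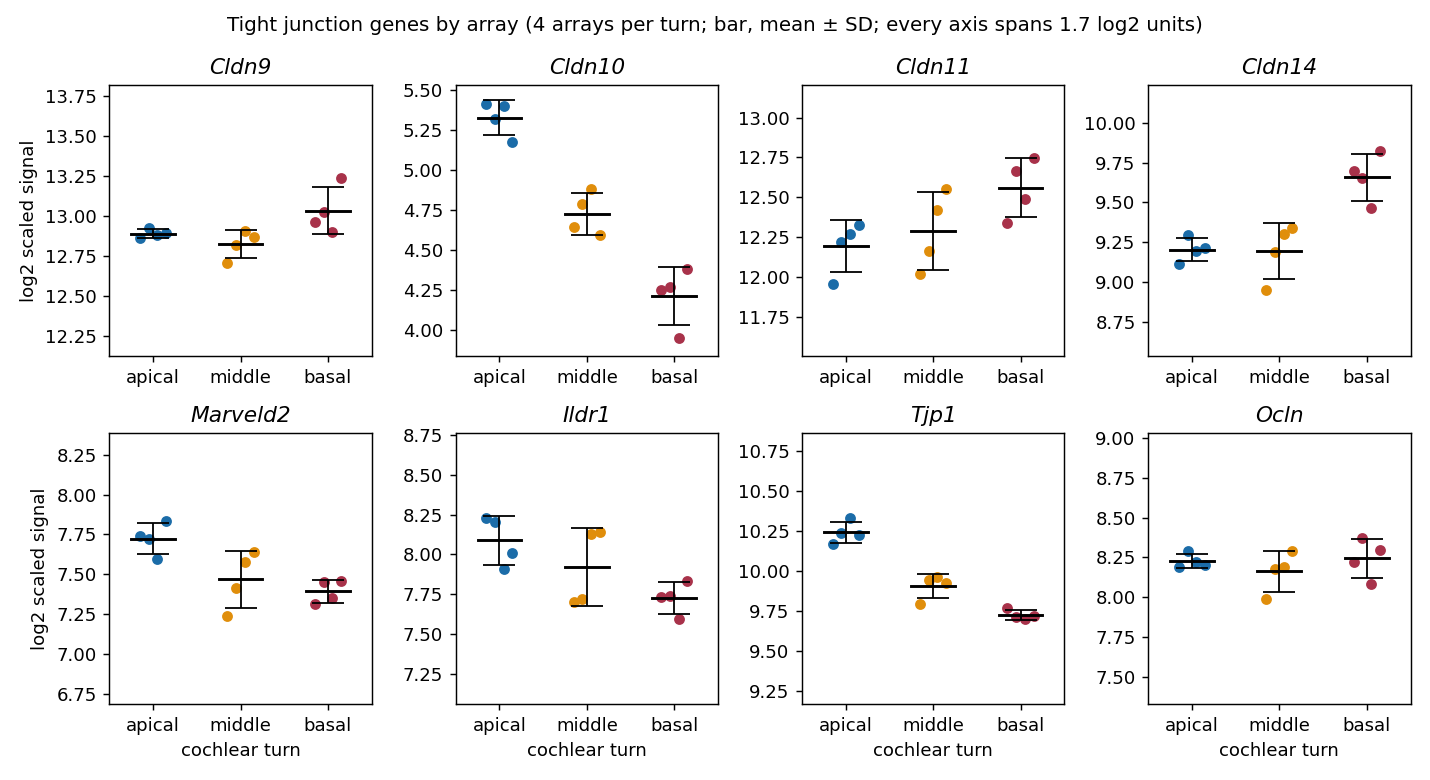
Log2 scaled signal of the 8 genes on each of the 12 arrays by cochlear turn, with the mean and SD of the 4 arrays as bars; every vertical axis spans the same number of log2 units but starts at its own level. Cldn10 and Tjp1 fall from apex to base without overlap between any turns (with spike-in scaling the step of Tjp1 from middle turn to base turns), and Cldn14 stands higher in the base than in both other turns.

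Cldn10 forms pores for ions between cells, and its variants from alternative first exons differ in the charge they let through. Its gene level in the apex was 42.7, 40.0, 42.3 and 36.2 on the 4 arrays. In the middle turn it was 25.0, 27.6, 29.5 and 24.1, and in the base 19.0, 19.3, 15.5 and 20.8. No 2 turns overlapped, and the order ran from apex to base. The apex was higher than the base by 1.12 ± 0.10 log2 units (SE, n = 4 arrays per turn; limma adjusted p = 1.25e-05) and higher than the middle turn by 0.60 (adjusted p = 0.0048), and the middle turn was higher than the base by 0.51 (adjusted p = 0.00536). It was the only one of the 8 genes that passed the F test over the 3 turns and differed 2-fold or more between turn means, conditions that 4.69% of all genes met. The signal was dim: 1 of its 7 probes was well above background on all 12 arrays, and that probe alone gave 0.95 ± 0.20 between apex and base (adjusted p = 0.00367 over all probes). The gene mean also holds stand-in values of dim spots, so its size is approximate. Without the 2 probes that were dim on every array the difference was 1.36 (limma adjusted p = 9.41e-06). All 5 probes kept were well above background on every apical array, 2 on every middle array and 1 on every basal array. That choice leaned on the turn with the higher signal. The 1.36 and its p still include stand-in signals, so they do not give the size free of dim spots. The size of the difference followed the treatment of the background, with 0.39 between apex and base after normexp correction and 0.72 with 16 added to each signal, both still called, while the step from middle turn to base was lost with spike-in scaling (0.26, adjusted p = 0.141).

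The 7 probes of Cldn10 span chr14:119187257-119274657 on the plus strand. The probe nearest the 5′ end, listed under 4 transcripts, was not well above background on any array of any turn. The next, the alternative start shown above, is listed under 2 transcripts and shares none with the first. It was well above background on 4 of 4 apical arrays, 1 of 4 middle arrays and no basal array, with signals of 33.8, 29.0, 37.7 and 44.9 in the apex. In the base it gave 6.50, 12.4, 7.15 and 12.2, which are not measured levels, and the apex was at least 1.32-fold higher. limma's adjusted p of 0.00134 over all probes was computed with these stand-in signals and does not test that bound. The 4 probes that follow were all called higher in the apex against the base, with differences from 0.95 to 1.52 log2 units. Of these 4, the probe at 0.95 was measured on all arrays, 2 were well above background on 3 of 4 basal arrays, and the one at 1.52, the second downstream exon shown above, on 1 of 4, so that its value rests mostly on stand-in signals in the base. The last probe, at the 3′ end, was again not well above background on any array. None of the 5 Cldn10 probes bright enough to be tested departed from the other probes of the gene across the turns. The alternative start came nearest (limma adjusted p = 0.102), also with its stand-in signals in the base.

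Cldn14 is a claudin of the organ of Corti whose loss in mice is known to kill hair cells. It gave 554.9, 628, 586 and 593 in the apex. In the middle turn it gave 496, 585, 630 and 648, and in the base 830, 804, 707 and 903. Apical and middle arrays overlapped fully, while every basal array stood above all 8 others. The base was 1.37-fold higher than the apex (log2 difference -0.45 ± 0.09, adjusted p = 0.00295) and 1.38-fold higher than the middle turn (-0.46, adjusted p = 0.00714). Apex and middle turn differed by 0.01 (95% confidence interval -0.20 to 0.22), a value whose sign changed with median (-0.04) or spike-in scaling (-0.15) and without apical 2 (-0.02) or middle 1 (-0.07). The difference between apex and base was called with every array left out in turn and under every other setting tried.

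Cldn11, the insulating claudin of strial basal cells and of myelin, gave 3981, 4780, 4934 and 5143 in the apex. It gave 4155, 4579, 5491 and 6008 in the middle turn and 5170, 6487, 5759 and 6885 in the base. The lowest basal array lay just above the highest apical one, and the middle turn overlapped both. The difference of -0.37 ± 0.13 between apex and base was barely past the threshold (adjusted p = 0.0467). This call was lost when any of 8 of the 12 arrays was left out (adjusted p between 0.0534 and 0.131). These were apical 1, 2 and 3, middle 2 and 3 and basal 2, 3 and 4. It was also lost under quantile normalization (-0.18, adjusted p = 0.277), with the median of probes (adjusted p = 0.0516) and with an unmoderated t test (adjusted p = 0.0694). limma's F test of Cldn11 over the 3 turns did not pass (adjusted p = 0.0962). All 3 of its probes, on chr3:31049153-31062981, were lower in the apex, from -0.39 to -0.32, and 1 was called. Apex and middle turn differed by -0.09 (95% confidence interval -0.38 to 0.20), or by 0.0012 under quantile normalization, and middle turn and base by -0.27 (-0.56 to 0.02), which was called with spike-in scaling (-0.53, adjusted p = 0.0251) and with the sample number as a block (adjusted p = 0.0249).

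Cldn9, expressed in the sensory epithelium of the inner ear, gave 7434, 7767, 7543 and 7618 in the apex. It gave 6669, 7240, 7688 and 7485 in the middle turn and 7977, 8357, 7652 and 9681 in the base. The turns overlapped in every comparison. The difference between apex and base was -0.14 (95% confidence interval -0.30 to 0.02, adjusted p = 0.152), with the opposite sign under quantile normalization (0.11), and that between middle turn and base was -0.21 (-0.37 to -0.05, adjusted p = 0.0672). The second passed the test without basal array 3 (adjusted p = 0.0351) and with normexp correction (adjusted p = 0.0468), and just so when dim probes were dropped from all genes (adjusted p = 0.0495) or limma's trended, robust setting was used (adjusted p = 0.0492). Scaling to the median brought both past the threshold (-0.26 and -0.27), and so did the spike-in probes (-0.56 and -0.47).

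Marveld2, or tricellulin, sits where 3 cells meet. It gave 214, 211, 193 and 228 in the apical turn, 151, 171, 191 and 199 in the middle turn, and 159, 175, 163 and 176 in the base. Every apical array exceeded every basal one, and the middle turn spread across both. The apex was higher than the base by 0.33 ± 0.09 log2 units (adjusted p = 0.0112), a call that held with each array left out but not under quantile normalization (0.20, adjusted p = 0.105) or median scaling (0.21, adjusted p = 0.0908), and whose sign turned with spike-in scaling as given above. The difference of 0.25 from the middle turn had an interval of 0.06 to 0.45 and did not pass over all genes (adjusted p = 0.0809). Middle turn and base differed by 0.07 (95% confidence interval -0.12 to 0.27), a difference that turned negative under quantile normalization (-0.00043) and spike-in scaling (-0.18). All 4 probes, on chr13:101366266-101381502 of the minus strand, were higher in apex against base, from 0.18 to 0.60, and 2 were called.

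Ildr1 encodes angulin-2, the receptor that brings tricellulin to the corners between cells. It gave 300.3, 295, 240.5 and 258 in the apical turn, 208, 211, 280.0 and 282 in the middle turn, and 213, 214, 193 and 228 in the base. The 4 middle arrays fell in 2 pairs, one at the basal level and one among the apical values, and the apical and basal arrays did not overlap. The apex was higher than the base by 0.36 ± 0.12 (adjusted p = 0.0296). This call was lost when apical 1 or 2 or basal 1, 2 or 3 was left out (adjusted p between 0.0554 and 0.0823) and under quantile normalization (0.27, adjusted p = 0.105) and median scaling (0.25, adjusted p = 0.122), as well as with the sample number as a block (adjusted p = 0.0574), and the sign turned with spike-in scaling as given above. The F test over the 3 turns did not pass (adjusted p = 0.0745). Differences were 0.17 between apex and middle turn (95% confidence interval -0.09 to 0.43) and 0.20 between middle turn and base (-0.06 to 0.46), the second of which was -0.06 with spike-in scaling. All 8 probes, on chr16:36694137-36726763 of the plus strand, were higher in apex against base, from 0.15 to 0.61, and 3 were called.

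Ocln, the first transmembrane protein described at tight junctions, gave 293, 313, 299 and 295 in the apex. It gave 254, 290, 292 and 313 in the middle turn and 298, 332, 272 and 314 in the base. The turns overlapped, and the apex differed from the base by -0.02 (95% confidence interval -0.18 to 0.15, adjusted p = 0.893). The sign of that difference changed without basal array 2 (0.03) or 4 (0.000756), and with spike-in scaling it was -0.43 and called. The other comparisons gave 0.07 (-0.10 to 0.23; -0.09 with spike-in scaling) for apex and middle turn and -0.08 (-0.25 to 0.08) for middle turn and base, the latter -0.34 and called with spike-in scaling (adjusted p = 0.0287). None of its 7 probes was called by limma in any comparison, and 1 had an unadjusted p under 0.05, in apex against middle turn. Ocln and Marveld2 are neighbors on chromosome 13, with 55160 bases between their nearest probes.

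Tjp1, or ZO-1, is the scaffold on which claudin strands are assembled. Its signal was 1154, 1207, 1288 and 1199 in the apical turn, 887, 986, 998 and 973 in the middle turn, and 871, 838, 832 and 844 in the base. No 2 turns overlapped. The apex exceeded the base by 0.52 ± 0.05 log2 units (adjusted p = 3.05e-05) and the middle turn by 0.34 (adjusted p = 0.00399), each called with every array left out. The middle turn exceeded the base by 0.18 (adjusted p = 0.0303), a smaller step whose call was lost without any of middle 2, 3 and 4 or basal 2, 3 and 4 (adjusted p between 0.059 and 0.0779), with median scaling (0.12, adjusted p = 0.124), with the median of probes (adjusted p = 0.054) and in a fit of only these 2 turns (adjusted p = 0.059), and whose sign turned with spike-in scaling (-0.08). Spike-in scaling also took away the call against the middle turn (0.18, adjusted p = 0.202).

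**Figure D2:**
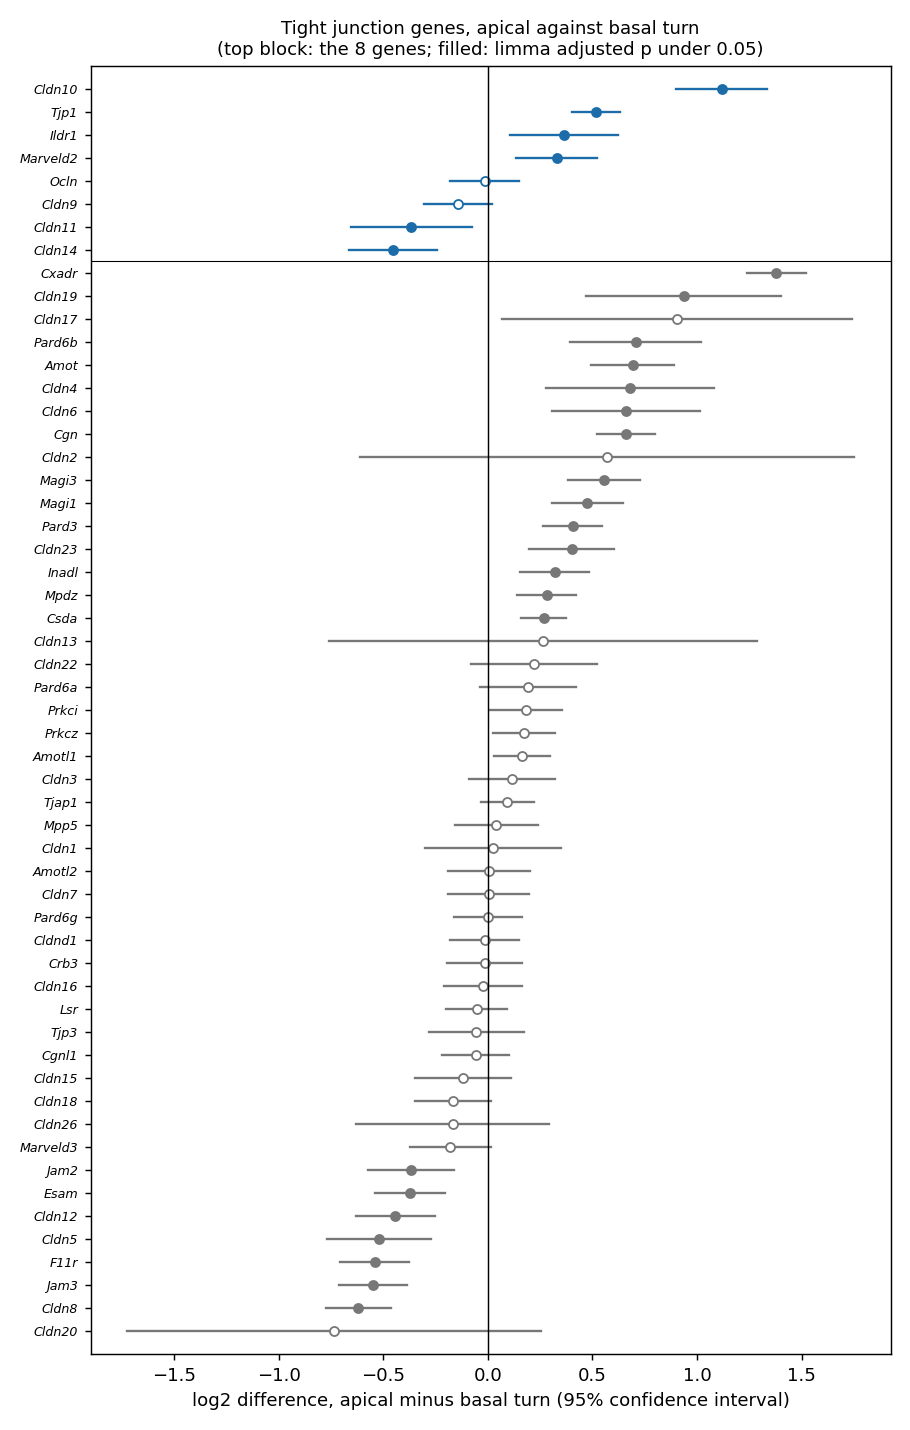
Log2 difference between apical and basal turn with its 95% confidence interval for the 8 genes (upper block) and 47 other tight junction genes (lower block), filled where limma's adjusted p was under 0.05. Cldn10, Tjp1, Ildr1 and Marveld2 lie to the right and Cldn14 and Cldn11 to the left; with the arrays scaled to spike-in probes, Ildr1 and Marveld2 change sign.

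Across single exons, 39 of the 58 probes of the 8 genes were called between apex and base, beside 18% of all probes called higher and 16.4% called lower in the apex, and 27 of the 39 were probes of Tjp1. All 27 Tjp1 probes, spread over chr7:72441126-72515755 on the minus strand, were called higher in apex against base, with differences from 0.22 to 0.67 and a median of 0.55. Against the middle turn, 19 of the 27 were called, where 3.04% of all probes were called higher and 2.86% lower in the apex. In the middle turn against the base, 5 were called higher (13 under quantile normalization and none with median scaling), beside 7.76% of all probes called higher and 6.02% called lower. With spike-in scaling none of these Tjp1 probes was called higher in any comparison, and 22 of the 27 had a positive difference in apex against base, 25 between apex and middle turn and none between middle turn and base. The probes of a gene share their arrays and are not replicates.

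Each probe was also compared with the mean of the other probes of its gene, and 11.1% of the 125426 probes tested this way departed from their gene over the turns. Of the 54 probes of the 8 genes with 3 or more probes that were not too dim, 2 departed, both in Tjp1. They are the probe nearest the 3′ end (adjusted p = 0.0187), with a difference between apex and base of 0.22, and a probe at chr7:72445952-72446011 (adjusted p = 0.0215) with 0.36, both smaller than the median of the gene. The probe of the alternative Tjp1 exon shown above gave 396, 430, 450 and 373 in the apex and 292, 329, 309 and 309 in the base. Its difference of 0.41 did not depart from the other Tjp1 probes (adjusted p = 0.372).

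**Figure D3:**
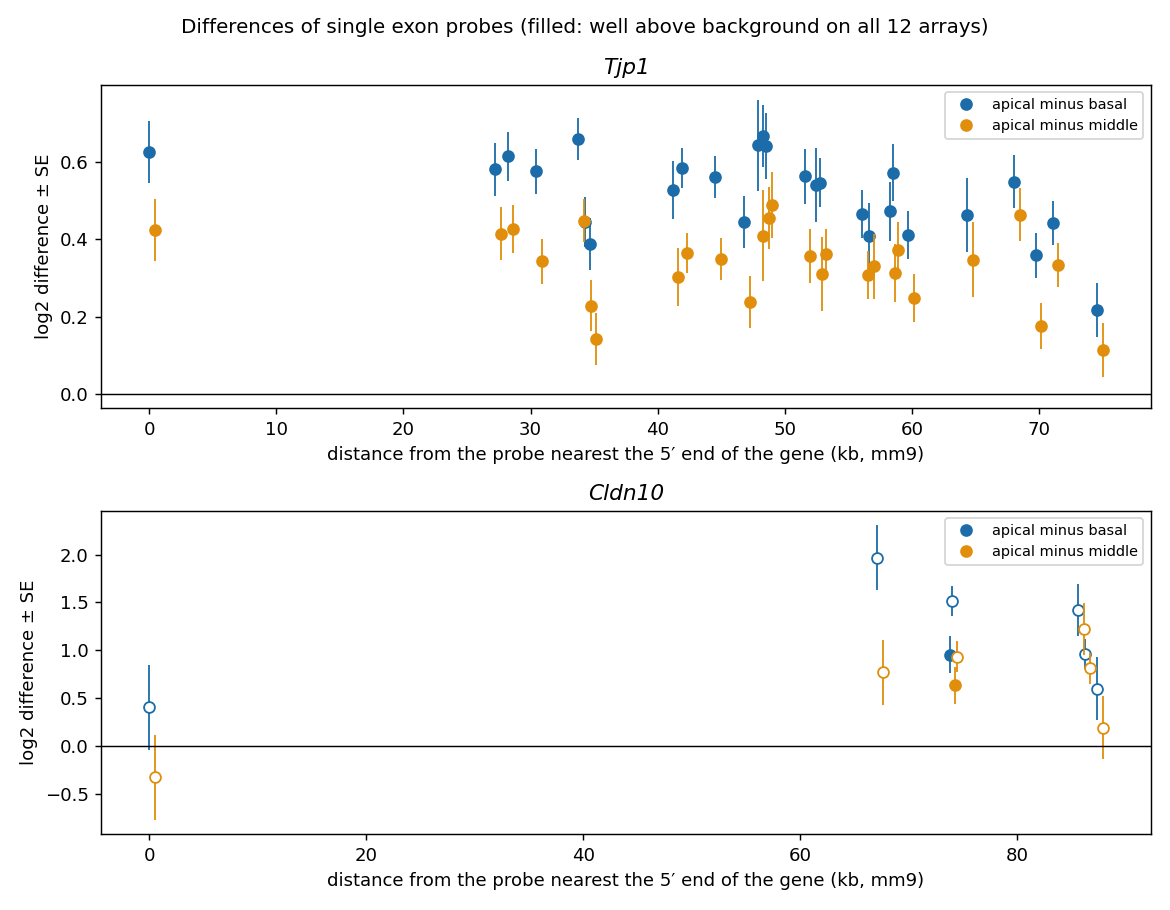
Log2 difference with its SE of each Tjp1 probe (top) and Cldn10 probe (bottom), apex against base in blue and apex against middle turn in orange, by distance in kb from the probe nearest the 5′ end, with orange points moved slightly to the right. All 27 Tjp1 probes are filled (well above background on all 12 arrays). They lie above 0 in both comparisons (22 and 25 of them with spike-in scaling), while 1 of 7 Cldn10 probes is filled. The open point of the alternative start is the highest in apex against base. It is drawn from stand-in signals in the base and is not a measured size.

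Between apex and middle turn, 2 of the 8 genes were called, Cldn10 and Tjp1, both higher in the apex, beside 4.42% of all genes called higher. None of the 8 was called lower by limma, at an adjusted or an unadjusted p, where 7.59% of all genes were. Between middle turn and base 3 of the 8 were called, beside 20.9% of all genes. Cldn10 and Tjp1 were higher in the middle turn, as were 11.7% of all genes, and Cldn14 was lower, as were 9.21%. With median scaling 1 of the 8 was called higher and 2 lower in that comparison. With spike-in scaling none was higher and 4 were lower, namely Cldn9, Cldn11, Cldn14 and Ocln. Over all 19505 genes, these scalings called 1762 and 805 higher and 2863 and 6954 lower there. Over the 3 turns together, Cldn10, Cldn14, Marveld2 and Tjp1 passed the F test, as did 38.6% of all genes. Cldn10 and Tjp1 stepped down at both boundaries, with the exceptions given above, for Cldn10 at the second step and for Tjp1 at both. The Cldn14 difference lay at the boundary of middle turn and base.

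**Figure D4:**
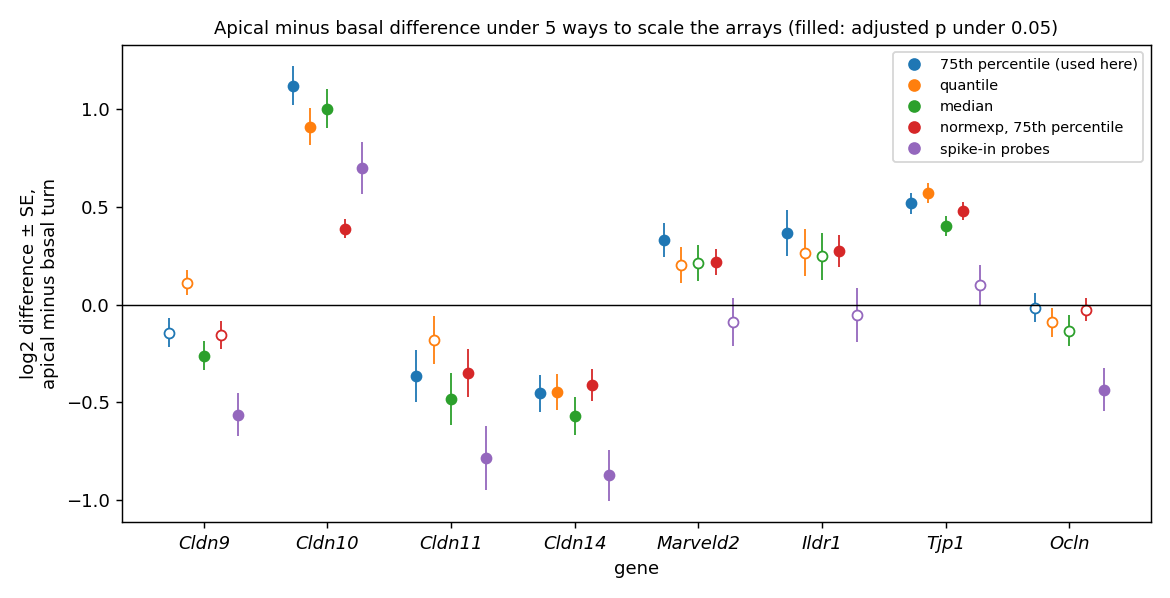
Log2 difference with its SE between apical and basal turn for the 8 genes under 5 ways to scale or correct the arrays, filled where the adjusted p was under 0.05. Cldn10 stays positive and Cldn14 and Cldn11 negative under all 5, Tjp1 stays positive but is open with the spike-in probes, and Marveld2 and Ildr1 cross 0 with the spike-in probes and Cldn9 with quantile normalization.

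A list of 57 further tight junction gene names was examined, of which 47 were on the arrays. Between apex and base, 14 were higher in the apex (29.8%) and 7 lower (14.9%), beside 17.6% and 21.6% of all genes. The median difference of the 47 was 0.09 log2 units (-0.02 with median scaling and -0.33 with spike-in scaling). Over all genes it was -0.04 (-0.15 and -0.45). Of 7 scaffold genes, 5 were higher and none lower (1 and 2 with spike-in scaling, 3 and none with median scaling), among them cingulin (Cgn, 0.66) and the membrane-associated guanylate kinases Magi3 (0.55) and Magi1 (0.48). Of 5 immunoglobulin adhesion genes, the adhesion molecules F11r (-0.54), Jam2 (-0.37), Jam3 (-0.55) and Esam (-0.37) were lower and Cxadr was higher, under every scaling tried, though Esam was not called with the median of probes (-0.17, adjusted p = 0.227). Of 19 other claudins, 4 (21.1%) were higher and 3 (15.8%) lower, near the shares of all genes (1 and 11 with spike-in scaling). Between apex and middle turn 9 of the 47 were higher and 2 lower, beside 4.42% and 7.59% of all genes. Between middle turn and base 8 were higher and 4 lower, beside 11.7% and 9.21% of all genes. Calls against the middle turn include Cldn18, and those of middle turn against base also Cldn1, both read mostly by dim probes. In the apex 1 of 4 Cldn1 probes and 1 of 5 Cldn18 probes were well above background on all 4 arrays. In apex against base with spike-in scaling, 3 of the 47 were higher and 28 lower. Of all 19505 genes, 917 were then called higher and 13393 lower. In the same comparison, Mpdz, Inadl, Pard3, Csda and Cldn23 changed sign. Roles, and the genes named in this paragraph other than Cxadr, were chosen after their values were seen.

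Cxadr, a receptor for coxsackie and adenoviruses that sits at tight junctions, had the largest difference between apex and base of the 47. It gave 564, 609, 539.9 and 550.3 in the apical turn, 295, 346, 342 and 311 in the middle turn, and 227, 212, 212 and 218 in the base. No 2 turns overlapped, and the apex was higher than the base by 1.38 ± 0.06 (adjusted p = 1.64e-07) and than the middle turn by 0.81 (adjusted p = 0.00011). Cldn22, read by 1 probe, was set apart by the middle turn alone. It gave 1211, 1256, 878 and 1176 in the apical turn, 241, 205, 271 and 216 in the middle turn, and 1125, 1041, 846 and 859 in the base. The apex was higher than the middle turn by 2.27 log2 units (adjusted p = 2.41e-05), and the middle turn differed from the base by -2.05 (adjusted p = 8.97e-06), while apex and base differed by 0.22 (95% confidence interval -0.08 to 0.52), or by -0.20 with spike-in scaling.

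Lsr, the first angulin, differed by -0.05 (95% confidence interval -0.20 to 0.09), and by -0.47 with spike-in scaling, where it was called (adjusted p = 0.00125). Cldn5, the claudin of blood vessel endothelium, was lower in the apex, at -0.52 (adjusted p = 0.00366), a call lost under quantile normalization (-0.27, adjusted p = 0.0671). Ildr2, a relative of Ildr1, was looked for by name and was not among the gene names used.

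Markers of the cell types in the tissue also differed between apex and base, in both directions. Of 10 hair cell markers 8 were higher in apex against base, and of 8 supporting cell markers 5, with none lower in either list (7 of 10 and 4 of 8 with spike-in scaling, and 1 and 2 lower). The summed hair cell signal ran from 10519 to 11313 in the apex and from 5675 to 7789 in the base. Atoh1 was not well above background in any turn. The sum of supporting cells ran from 53410 to 62395 and from 55503 to 61433. Since every probe has its own brightness, sums here and below follow the brightest markers and need not go with the counts. All 8 neuron markers were higher in the apex under every scaling tried, where their sum ran from 26044 to 34041, beside 4742 to 21299 in the base. Of 7 Schwann cell markers 5 were higher and 1 lower (1 and 2 with spike-in scaling).

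Of 7 markers each, 5 were lower in the apex for strial marginal cells, 5 for strial intermediate cells and 6 for fibrocytes of the spiral ligament, with sums from 18206 to 19994 against 25530 to 29163, from 39965 to 46905 against 60146 to 81208 and from 266983 to 290501 against 524573 to 588344 in apex and base. Atp2b2, the remaining gene of the fibrocyte list, was higher in the apex (1.39, adjusted p = 0.000854). Whether its signal came from fibrocytes was not tested. Of 7 epithelial markers, Epcam, Krt19 and Grhl2 were higher in the apex and Krt18 was lower (1 higher and 4 lower with spike-in scaling), and their sum ran from 9988 to 11322 in the apex and from 8066 to 9794 in the base. Of 7 endothelial markers Emcn and Kdr were higher and 3 were lower (1 and 5 under quantile normalization or spike-in scaling), and their sum ran from 4371 to 5973 in the apex and from 2976 to 3517 in the base. All 6 macrophage markers were lower. Of 6 oligodendrocyte markers 2 were higher (2 lower with spike-in scaling), of 6 bone markers 1 was lower, and of 4 red blood cell markers limma called none, at an adjusted or an unadjusted p. The part of these markers in the differences of the tight junction genes was not tested.

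For each of the 4 genes that passed the F test, the genes with the most similar profile were taken from 16008 candidates by the root mean square difference of log2 values over the 12 arrays, after each gene was centered on its mean. For Cldn10 they were Fbn2 (0.093 log2 units), Krt15 (0.10) and Nckap5 (0.12), against a spread of 0.47 for Cldn10 about its own mean. For Cldn14, with a spread of 0.25, they were Rilpl2 (0.051), Socs2 (0.063) and the epithelial keratin Krt18 (0.063). For Marveld2, with a spread of 0.18, they were Wfdc2 (0.049), Myof (0.069) and Tpbg (0.075), and for Tjp1, with a spread of 0.22, Kdm5b (0.049), Zfp608 (0.058) and Tns3 (0.058). These are descriptions over arrays that share slides.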

How the data were processed

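The deposited files hold spot intensities that the authors made from scans of Agilent mouse exon arrays with Feature Extraction 10.7.3.1, with the background subtracted and no normalization between arrays; positions are on mm9. The deposited value table held the same intensity values and was not counted separately. Control spots (7914 of 180880) were left out, and so were 622 flagged spots. Arrays were scaled to a common 75th percentile (534.6 to 722.1 before scaling, 641.3 after), signals were log2 transformed with no added constant, and probes were averaged per gene name. On each array 77.4% to 81.4% of spots were well above background, and the precision is limited by the 4 arrays per turn; the median SD of a gene within a turn ran from 0.106 to 0.126 log2 units. Spots too dim to be well above background carry stand-in values, so a probe that was dim on every array of a turn is given as a bound. Gene means include dim probes, which touches Cldn10 among the 8 genes and, among the 47 others, several claudins.

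Turns came from the labels. Differences were tested with limma 3.58.1 (lmFit, eBayes, R 4.3.3) in one fit of all 12 arrays, and adjusted over all genes or all probes. Further names were Cldn5, Lsr, Ildr2 (not found), listed genes with a passed F test and a 2-fold difference between turn means, and the nearest profiles. Members, lists and tests were chosen with earlier results of these data known. The scripts were tested on simulated data. Alternatives were other scalings (quantile, median, spike-in), normexp with an offset of 50, other probe summaries and filters, other tests, a replicate block and each array left out. Of the listed tight junction genes, 1 is not reported here. The quantitative PCR of the study was not analysed here.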

Additional observations from a re-analysis of the deposited data

Results flagged for a closer look

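In groups of 4 arrays, a value was looked at again when its gap to the nearest other array exceeded Dixon's 95% critical share of the range of the group, which chance alone gives in about 1 in 20 groups. None of the 8 genes met this in any turn, and 5 values of other tight junction genes did, out of 93 groups tested. Jam2 was low on middle array 1 (ratio 0.961; signal 753, with the nearest other at 827). Inadl was low on middle array 1 (0.880; 164, nearest 186) and on basal array 3 (0.834; 153, nearest 179). Pard6b was low on apical array 1 (0.830; 69.7, nearest 76.3) and on basal array 1 (0.839; 34.2, nearest 49.2).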

How the results depend on the processing

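With every array left out in turn and under all other settings tried, the difference between apex and base of Cldn10 (0.39 to 1.48) and Cldn14 (-0.87 to -0.40) was called with the same sign. Leaving out arrays, 4 to 6 of the 8 genes were called for apex against base, 2 between apex and middle turn and 2 to 3 between middle turn and base, and 3 to 4 passed the F test.

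Quantile normalization left 3 of the 8 genes called between apex and base, where 2909 of all genes were called higher and 5000 lower. It left 5 of the 47 other genes higher in middle turn against base, and 1781 of all genes in place of 2275. Of the probes of the 8 genes, 15 were called between these turns in place of 8. Spike-in scaling left 1 of the 8 genes called between apex and middle turn. Of the 47 it called 3 higher and 28 lower in apex against base (14 and 7 here). Between apex and middle turn it called 3 and 10 (9 and 2), and between middle turn and base 2 and 19 (8 and 4). Over all 19505 genes it called 917 higher and 13393 lower, 263 and 5895, and 805 and 6954 in these comparisons. Of the probes, 16 were called in apex against base (39) and 3 between apex and middle turn (22). Median scaling called 5 of the 47 lower in the apex than in the middle turn, 7 lower in middle turn against base, and 3 probes between these turns. Of all genes it called 2888 and 2863 lower in these comparisons, in place of 1480 and 1796. Of the 47, 1 was lower in the apex than in the middle turn with normexp, the mean linear signal, the median of probes or only the 2 turns compared, and 5 were higher in middle turn against base with the mean linear signal. limma's diffSplice found 1 probe departing from its gene in place of 2.

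Without single arrays, 14 to 16 of the 47 were higher and 7 to 9 lower in apex against base, 5 to 9 and 1 to 5 between apex and middle turn and 5 to 8 and 4 to 6 between middle turn and base. The 5 higher between apex and middle turn arose without apical 2, apical 3 or middle 2. Over all genes 431, 621 and 559 were then called higher there, in place of 863. The number lower there was 1 without apical 1, 2 or 3 or middle 2 or 4 and 5 without middle 3. In the same runs 756, 534, 789, 826, 587 and 2583 of all genes were called lower, in place of 1480. The 5 higher between middle turn and base arose without middle 1, where 1582 of all genes were called higher in place of 2275. Of the probes, 35 to 41 were called for apex against base, 12 to 22 between apex and middle turn (12 without apical 2) and 2 to 8 between middle turn and base (2 without basal 2 or 4, 4 without middle 3 or basal 3, 5 without middle 1, 2 or 4).

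Signs turned with spike-in scaling between apex and base for Marveld2 (-0.089), Ildr1 (-0.054), Cldn22 (-0.20), Cldn23 (-0.018), Mpdz (-0.14), Inadl (-0.098), Pard3 (-0.013) and Csda (-0.15), between apex and middle turn for Cldn9 (-0.096), Cldn14 (-0.15) and Ocln (-0.095), and between middle turn and base for Marveld2 (-0.18), Ildr1 (-0.060) and Tjp1 (-0.076). They turned with quantile normalization for Cldn9 (0.11, apex and base), Cldn11 (0.0012, apex and middle turn) and Marveld2 (-0.00043, middle turn and base), and with median scaling for Cldn14 (-0.044, apex and middle turn). Leaving out single arrays turned Cldn14 between apex and middle turn (-0.072 to 0.056; -0.022 without apical 2, -0.072 without middle 1) and Ocln between apex and base (-0.068 to 0.027; 0.027 without basal 2, 0.000756 without basal 4). The causes were not tested.

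Whether sample numbers pair the arrays is not settled. Same-numbered arrays of different turns deviated together with a mean correlation of 0.0949 (-0.0367 to 0.227 over 12 pairs), short of the 0.1 asked of every pair, beside -0.0313 over the 36 other pairs, and 8 of 12 arrays correlated best with their own number. With the number as a replicate block, 5 of the 8 genes were called for apex against base, 2 between apex and middle turn and 4 between middle turn and base, with Ildr1 lost (adjusted p = 0.0574) and Cldn11 gained between middle turn and base (adjusted p = 0.0249), and 4 of the 47 were lower in the apex than in the middle turn. Slide as a block could not be fitted, since each slide held 1 turn. Among the 8 genes, dim probes limit Cldn10 the most.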
